A study of Mus musculus with 21 samples.

Results

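The replication-dependent histone genes encode the core histones H2A, H2B, H3 and H4 and the linker histone H1 that package newly copied DNA. They were taken as every gene whose symbol starts with Hist1h, Hist2h, Hist3h or Hist4h, without pseudogenes. By this rule 65 of the 51559 genes in the count tables were members, comprising 6 H1, 18 H2A, 16 H2B, 12 H3 and 13 H4 genes. The Hist1 cluster held 52 of them, Hist2 held 10, Hist3 held 2 and Hist4 held 1. The annotation lists 67 such genes, and *Hist1h2bm* and *Hist1h2bh* are not analysed here.

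Mouse embryonic stem cells (ESCs) of the V6.5 line were grown in serum with LIF and 2i, a pair of kinase inhibitors that holds ESCs in the naive state. The 3 wild-type (WT) cultures were compared with 4 cultures in which *Ddx6*, a gene for an RNA helicase of P-bodies, had been knocked out by Cas9. The *Ddx6* KO cells came from 2 clones with 2 cultures each, so that each clone stands for a single edited cell. Every culture, WT included, received 500 µM 4-thiouridine (4sU) for 30 min, its RNA was divided into 2 portions, and labelled nascent RNA was pulled down from one while the other was sequenced as total RNA. Ribosomal RNA was removed from total RNA with a depletion kit, and whether this was also done for the 4sU fraction is not given in the sources used here. Library totals ranged from 2441639 to 3570192 counts in the 7 4sU libraries and from 5724179 to 7369651 counts in the 7 total RNA libraries.

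Replication-dependent histone genes are transcribed during S phase, and the factor NPAT gathers the transcription machinery at their clusters. Their mRNAs have no introns in the usual gene structure and end in a conserved stem-loop instead of a poly(A) tail. The stem-loop is bound by SLBP, is needed for the cleavage that forms the 3′ end and for translation, and lets the mRNA be degraded rapidly when DNA synthesis stops. The 4sU signal reads recent synthesis, and total RNA over 4sU reads relative mRNA stability.

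The stem-loop matched in H4 genes differed from that matched in the other classes. The 26 bases around it are shown for 6 genes to which the results below return, with the 16 bases of the stem-loop in capitals, 5′ to 3′, read from GENCODE M21 transcripts of GRCm38 (mm10).
Hist1h1e, chr13:23621782-23621797, minus strand: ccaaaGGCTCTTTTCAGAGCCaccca
Hist1h2ac, chr13:23683477-23683492, minus strand: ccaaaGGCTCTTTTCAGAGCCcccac
Hist1h3b, chr13:23752820-23752835, plus strand: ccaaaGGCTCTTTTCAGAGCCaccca
Hist1h4d, chr13:23581950-23581965, plus strand: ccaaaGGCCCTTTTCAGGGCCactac
Hist1h4j, chr13:21735437-21735452, plus strand: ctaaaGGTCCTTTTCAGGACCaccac
Hist4h4, chr6:136803998-136804013, minus strand: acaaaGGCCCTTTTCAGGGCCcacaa
Of the 65 members, 50 had at least 16 annotated bases of 3′ UTR, and a perfect stem-loop of this pattern was found in 33, between 24 and 58 bases after the stop codon. The search took only perfect stems and fixed the loop and the outer and innermost pairs of the stem. Most of the 16 bases were thus set beforehand, and only the stem pairs between could differ from gene to gene. Within this limit, the H1, H2A, H2B and H3 genes with a stem-loop (24 genes) all had the same 16 bases. The 9 H4 genes with one had a different stem, in 7 of them the form printed for *Hist1h4d* and in *Hist1h4j* and *Hist1h4b* that printed for *Hist1h4j*. A gene in which no match was found may end before the stem-loop in the annotation, or have a stem-loop that departs from the pattern searched.

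Promoter windows of 250 bases before to 50 bases after the transcription start were found in the RefSeq table (GRCm38.p6) for 60 members, and 4 motifs were searched on both strands. TATAAA, the TATA box, was present in 58.3% of the members' windows and in 13.6% of all 32851 windows. CCAAT was present in every H1, H2A, H2B and H3 window matched and in 3 of 12 H4 windows, against 37.4% of all windows. ATTTGCAT, the octamer bound by OCT1 and OCT4, was found in 7 of 18 H2A windows, in 5 of 14 H2B windows and in no window of the other classes, against 1.7% of all windows. AAACACA, the H1 box, was found in 5 of 6 H1 windows, with *Hist1h1a* as the exception, and in 7.2% of all windows. The windows of *Hist1h1a* and *Hist1h1e*, the H1 genes with the largest and the smallest change in nascent RNA among those that fell, and of *Hist1h2ac*, the member whose nascent RNA fell most, are printed with every motif match in capitals. The octamer of *Hist1h2ac* reads as its reverse complement on the strand shown, as does ATTGG for CCAAT.
Hist1h1a, chr13:23763418-23763717, plus strand: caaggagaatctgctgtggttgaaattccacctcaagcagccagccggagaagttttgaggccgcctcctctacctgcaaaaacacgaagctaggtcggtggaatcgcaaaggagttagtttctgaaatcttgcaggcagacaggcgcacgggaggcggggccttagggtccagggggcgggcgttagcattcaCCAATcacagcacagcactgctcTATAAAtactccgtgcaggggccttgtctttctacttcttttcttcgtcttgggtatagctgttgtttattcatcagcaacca
Hist1h1e, chr13:23622509-23622808, minus strand: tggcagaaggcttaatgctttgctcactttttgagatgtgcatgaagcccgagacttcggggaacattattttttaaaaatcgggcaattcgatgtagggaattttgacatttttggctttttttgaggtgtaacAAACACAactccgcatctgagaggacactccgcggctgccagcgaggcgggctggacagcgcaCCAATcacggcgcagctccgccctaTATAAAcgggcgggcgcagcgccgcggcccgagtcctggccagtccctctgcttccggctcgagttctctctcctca
Hist1h2ac, chr13:23683910-23684209, minus strand: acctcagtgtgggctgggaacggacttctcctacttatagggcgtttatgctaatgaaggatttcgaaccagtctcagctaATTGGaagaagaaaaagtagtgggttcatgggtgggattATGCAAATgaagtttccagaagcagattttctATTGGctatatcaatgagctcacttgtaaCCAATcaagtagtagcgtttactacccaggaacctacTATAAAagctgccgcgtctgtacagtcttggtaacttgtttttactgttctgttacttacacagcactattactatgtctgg
The H4 windows are represented by *Hist1h4d*, the H4 gene with the most counts, and by *Hist4h4*, the only member on chromosome 6, whose window had no match to any of the 4 motifs.
Hist1h4d, chr13:23581318-23581617, plus strand: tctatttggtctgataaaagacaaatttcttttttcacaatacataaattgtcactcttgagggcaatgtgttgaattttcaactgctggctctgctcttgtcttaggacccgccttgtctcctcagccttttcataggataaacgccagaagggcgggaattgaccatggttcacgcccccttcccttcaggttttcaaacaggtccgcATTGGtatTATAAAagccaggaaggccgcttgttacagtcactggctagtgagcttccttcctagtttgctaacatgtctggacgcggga
Hist4h4, chr6:136804382-136804681, minus strand: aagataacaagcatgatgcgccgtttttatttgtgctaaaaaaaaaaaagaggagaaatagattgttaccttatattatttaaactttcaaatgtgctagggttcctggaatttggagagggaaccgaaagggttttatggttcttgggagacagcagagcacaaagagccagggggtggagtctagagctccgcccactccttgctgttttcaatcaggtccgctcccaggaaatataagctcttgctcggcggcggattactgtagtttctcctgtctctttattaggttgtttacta

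*Ddx6* was measured first as a check of the labels. Its level in total RNA was 314, 357 and 363 CPM (counts scaled to an equal library total) in the WT cultures, 59.6 and 70.7 CPM in clone 1 and 23.9 and 22.5 CPM in clone 2, which is -3.12 ± 0.32 (SE) on the log2 scale with an adjusted p of 9.2e-06 in edgeR. All 8 ESC markers listed, among them *Pou5f1* and *Nanog*, passed the filter on low counts, with a summed level of 4561 to 4671 CPM in WT total RNA and 4995 to 5194 CPM in *Ddx6* KO. They did not move alike, since 4 rose and 2 fell in total RNA at an adjusted p below 0.05. Of all genes that passed the filter, 19.5% rose and 31.0% fell. The 7 feeder fibroblast markers summed to 11.5 to 14.8 CPM in WT and 16.6 to 18.2 CPM in *Ddx6* KO, and the 6 primitive endoderm markers to 6.26 to 9.08 CPM and 8.61 to 11.1 CPM. Of these, 3 feeder genes and 2 endoderm genes passed the filter. In total RNA 2 of the feeder genes rose and 1 fell, and 1 of the endoderm genes rose. The part of these differences in the histone results was not tested.

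Nascent histone RNA was lower in *Ddx6* KO cells in all 5 classes, and steady-state histone mRNA was lower too, but by less. Summed over the 65 members, 4sU counts were 22772, 24903 and 28100 CPM in the WT cultures and 8964, 12411, 12543 and 10849 CPM in the *Ddx6* KO cultures, so that histone genes went from 2.53% to 1.12% of all nascent counts, a 2.26-fold difference. In total RNA the same sum was 10516, 10576 and 10447 CPM in WT and 7964, 8072, 8384 and 8489 CPM in *Ddx6* KO, a 1.28-fold difference. In both assays every *Ddx6* KO culture lay below every WT culture. Since ESCs of a culture are at all phases of the cell cycle, fewer cells in S phase and less histone mRNA per S phase cell cannot be told apart in these bulk samples.

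The classes did not move equally. The nascent sum of H2A genes was 2895, 3194 and 3813 CPM in WT and 985 to 1402 CPM in *Ddx6* KO, 2.67-fold lower. That of H2B genes was 4196, 4724 and 5844 CPM in WT and 1405 to 2042 CPM in *Ddx6* KO, 2.75-fold lower. H3 genes were 2.22-fold lower (4138 to 5089 CPM in WT, 1614 to 2306 CPM in *Ddx6* KO), H4 genes 2.08-fold lower (5066 to 6143 CPM, 2081 to 3127 CPM) and H1 genes 2.01-fold lower (6476 to 7211 CPM, 2879 to 3739 CPM). In total RNA the 5 classes lay closer together, with folds of 1.23 for H1, 1.26 for H4, 1.32 for H2A, 1.32 for H3 and 1.35 for H2B. Whether the classes differ from each other was not tested, since genes of a class share sequence and regulation and are not replicates.

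**Figure D1:**
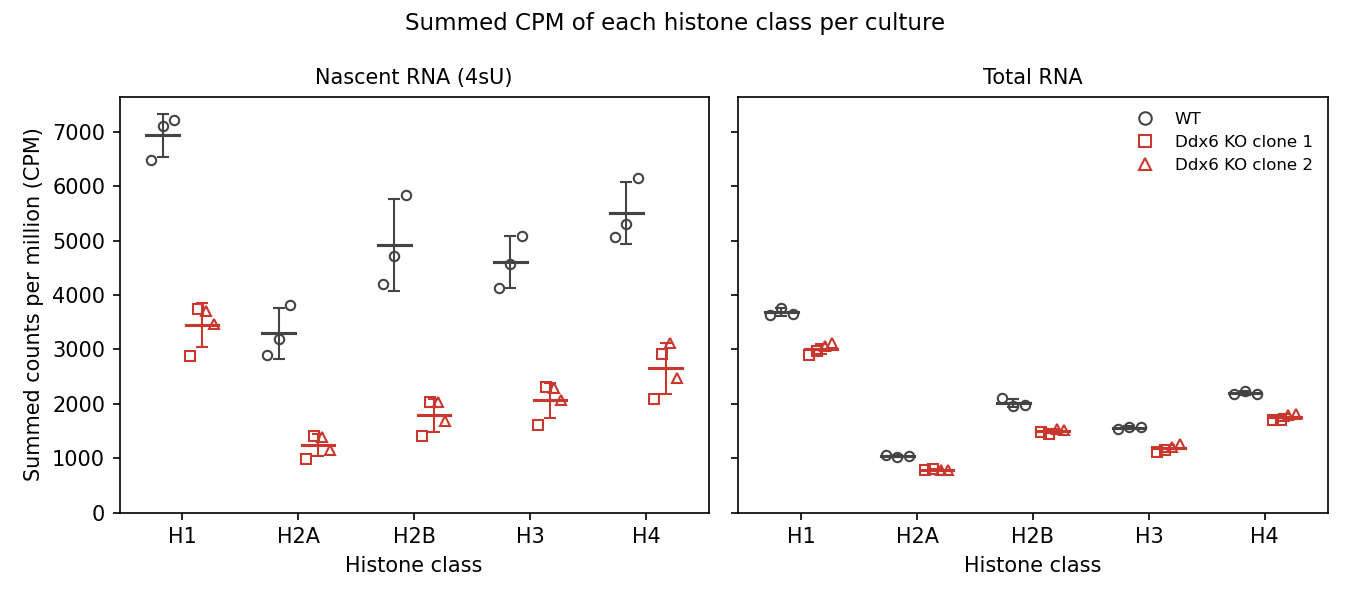
Summed CPM of the H1, H2A, H2B, H3 and H4 genes in nascent (4sU, left) and total RNA (right), with 1 point per culture and the mean and SD of each genotype as lines (3 WT and 4 *Ddx6* KO cultures). In every class and both assays all *Ddx6* KO points lie below all WT points, and the gap is wider in nascent RNA.

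The level per length was compared between classes only on single-end reads, which both assays share. Summed CPM per kilobase of counted exon in WT nascent RNA was 9981 ± 542 (SD, n = 3) for H1, 6864 ± 907 for H2A, 9428 ± 1564 for H2B, 7278 ± 801 for H3 and 9409 ± 1102 for H4. In total RNA it was 4585 ± 83.1 for H1, 2408 ± 40.6 for H2A, 4227 ± 146 for H2B, 2646 ± 49.2 for H3 and 4775 ± 82.2 for H4. H1, H2B and H4 thus stood above H2A and H3 in total RNA beyond the spread between cultures, while H1, H2B and H4 lay within that spread of each other in nascent RNA. Only uniquely mapped reads were counted, and reads shared by near-identical copies, which differ in number between classes, are missing from these sums.

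Of the 65 members, 57 passed the filter of at least 3 CPM in at least 3 libraries and were tested. The other 8 were *Hist1h2ao*, *Hist1h2ap*, *Hist2h2aa1*, *Hist2h2aa2*, *Hist1h2bq*, *Hist1h2br*, *Hist2h3c1* and *Hist1h4m*. They had between 0 and 37 counts in all 14 libraries together, and none exceeded 2.26 CPM in a library. In 7 of these 8, at most 10.2% of the 50-base windows of the counted exons occurred in no other gene. In *Hist2h3c1* it was 65.3%. The tested members *Hist1h3h* (6.1%) and *Hist1h2ai* (9.9%) had 82.3 and 312 CPM in the single-end WT nascent libraries. The part of shared sequence in the low counts of the 8 was not tested. The windows were compared with annotated transcripts only, not with the genome. A count of 0 in these 8 members is thus not by itself evidence that a copy is silent.

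In nascent RNA, 56 of the 57 tested members fell in *Ddx6* KO cells and none rose, at a Benjamini-Hochberg adjusted p below 0.05 in the quasi-likelihood test of edgeR. Of all 14518 tested genes, 21.0% fell. More than 2-fold falls were called for 46 members and for 5.79% of all tested genes. The member not called was *Hist1h1t*, the testis linker histone, which was close to the filter with 3.69, 7.06 and 4.68 CPM in WT and 5.76, 4.07, 5.16 and 2.24 CPM in *Ddx6* KO (log2 fold change -0.49 ± 0.33, SE). After TMM scaling, which the tests use and which lowers *Ddx6* KO relative to the plain CPM printed here (factors of 0.923 to 0.944 in WT and 1.04 to 1.07 in *Ddx6* KO), every *Ddx6* KO culture lay below every WT culture for 54 of 57 members, an order found in 21.2% of all tested genes. Over the tested members the log2 fold change had a median of -1.42, and over all tested genes of 0.00.

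In total RNA, 44 members fell and 2 rose, against 31.0% and 19.5% of all tested genes. No member changed more than 2-fold, whereas 4.86% of all tested genes fell by more than that. The members' median was -0.55, beside -0.10 over all tested genes. On the same scale every *Ddx6* KO culture lay below every WT culture for 45 members, an order found in 32.0% of all tested genes, and above every WT culture for the 2 members that rose, *Hist1h1e* and *Hist1h2aa*, an order found in 20.4% of all tested genes.

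Since nascent RNA fell by more than total RNA, the ratio of the assays rose. Relative mRNA stability, the interaction of genotype and assay, rose for 48 members and fell for none, while 3.78% of all tested genes rose. Rises of more than 2-fold were called for 21 members and 0.689% of all tested genes. The median was 0.88 over the members against -0.09 over all tested genes, and total over 4sU was higher in every *Ddx6* KO culture than in every WT culture for 52 members, an order seen in 7.45% of all tested genes. The 3 contrasts share their libraries, so that the rise in the ratio and the fall in nascent RNA are not separate observations. Scaled by library size alone, the median of all genes shifted by 0.20 in nascent RNA and by 0.16 in total RNA, and the members' median relative to all genes was -1.42, -0.45 and 0.97 in the 3 contrasts with and without this scaling.

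**Figure D2:**
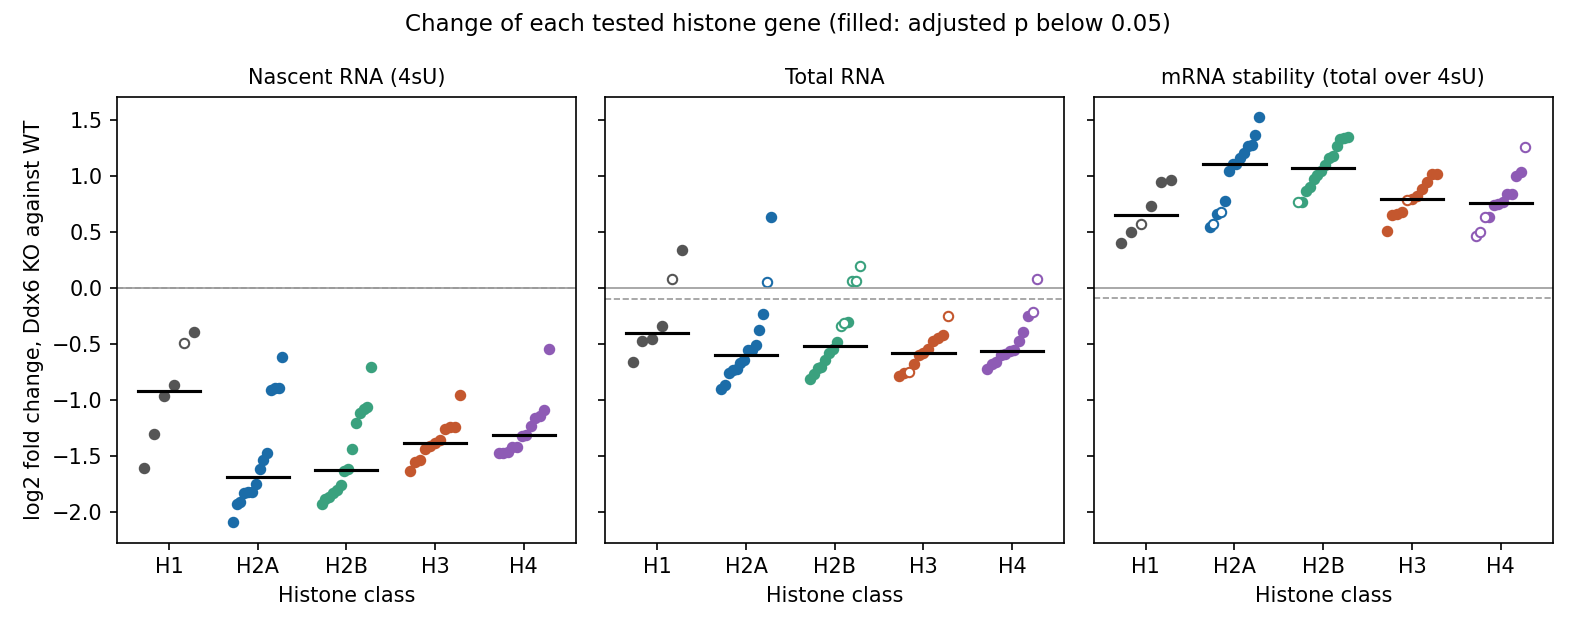
Log2 fold change of *Ddx6* KO against WT for each of the 57 tested histone genes, by class, in nascent RNA (left), total RNA (middle) and mRNA stability (right). Filled points have an adjusted p below 0.05, black bars mark the class median, the dashed line is the median of all tested genes, and all 57 points lie below 0 on the left and above 0 on the right.

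H1 genes encode the linker histones, which bind DNA between nucleosomes. Nascent RNA fell for 5 of 6 (median -0.92), total RNA fell for 4 and rose for 1 (median -0.40), and stability rose for 5 (median 0.65). *Hist1h1a* (ENSMUSG00000049539, chr13:23763717-23764358) had the most counts of all H1 genes. Its nascent level was 2403, 2635 and 2850 CPM in WT and 793, 1086, 1095 and 993 CPM in *Ddx6* KO, and its total level was 1262, 1304 and 1279 CPM against 875, 890, 925 and 909 CPM. The groups did not overlap in either assay, with log2 fold changes of -1.61 ± 0.08 (SE; adjusted p = 2.1e-11) and -0.67 ± 0.08 (adjusted p = 2.3e-06). *Hist1h1d* and *Hist1h1c*, next in counts, fell by less. *Hist1h1d* went from 1356, 1551 and 1541 CPM to 716, 959, 924 and 911 CPM in nascent RNA (-0.96 ± 0.07; adjusted p = 9.7e-12) and from 683, 690 and 691 CPM to 526, 550, 557 and 595 CPM in total RNA (-0.46 ± 0.07). *Hist1h1c* went from 1082, 1118 and 1008 CPM to 589, 726, 693 and 685 CPM in nascent RNA (-0.87 ± 0.06; adjusted p = 1.1e-19) and from 914, 945 and 875 CPM to 721, 706, 735 and 765 CPM in total RNA (-0.47 ± 0.05). For both genes no *Ddx6* KO culture reached the lowest WT culture.

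*Hist1h1e* (ENSMUSG00000051627, chr13:23621755-23622502) went the other way in total RNA. Its nascent RNA was 178, 231 and 208 CPM in WT and 148, 188, 201 and 190 CPM in *Ddx6* KO, with groups that overlapped as CPM but not after TMM scaling. The log2 fold change was -0.39 ± 0.08 (adjusted p = 0.00032), and -0.19 with adjusted p = 0.061 when libraries were scaled by size alone. Total RNA was 205, 221 and 195 CPM in WT and 281, 284, 302 and 300 CPM in *Ddx6* KO, every *Ddx6* KO culture above every WT culture (0.34 ± 0.07; adjusted p = 0.00027). Its stability rose by 0.73 ± 0.11 (adjusted p = 2.8e-05). The gene has the same stem-loop as the H2A genes. Its GENCODE M21 transcript runs on for 1153 bases beyond the stem-loop (chr13:23621782-23621797). Its counted exon ends at chr13:23621755, so that most of these bases were not counted. Such a run-on is not particular to *Hist1h1e*. Those of *Hist1h1d*, *Hist1h1c* and *Hist1h2ac*, whose total RNA fell, were 4884, 840 and 2010 bases.

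**Figure D3:**
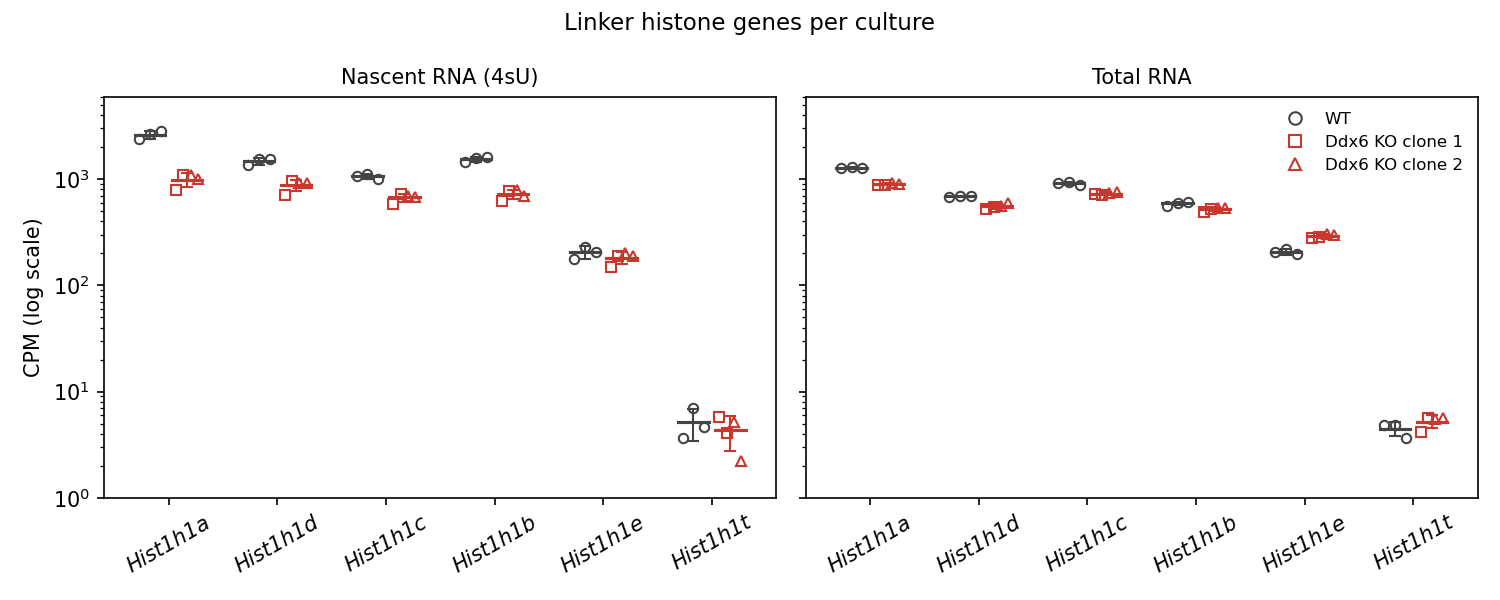
CPM of the 6 H1 genes per culture on a log axis in nascent (left) and total RNA (right), with the mean and SD of each genotype as lines. *Hist1h1a* shows the widest gap in nascent RNA, and *Hist1h1e* is the one called gene whose *Ddx6* KO points lie above its WT points in total RNA.

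H2A and H2B form the dimers at the edges of the nucleosome. Their classes had the largest medians in nascent RNA and stability, though not in total RNA for H2B. Every H1 gene had at least 76.5% of its 50-base windows in no other gene, whereas most tested H2A genes had less than 50%. The tested H2A genes above 50%, *Hist1h2aa*, *Hist2h2ab*, *Hist2h2ac* and *Hist3h2a*, changed by -0.89, -0.62, -0.89 and -1.48 in nascent RNA. *Hist1h2af*, at 20.3%, changed by -0.92. The part of shared sequence in the order of the classes was not tested. All 14 tested H2A genes fell in nascent RNA (median -1.69), 12 fell and 1 rose in total RNA (median -0.60), and stability rose for 12 (median 1.11). *Hist1h2ac* (ENSMUSG00000069270, chr13:23683449-23683924) had the largest nascent fall of all members. It went from 385, 422 and 552 CPM in WT to 89.8, 137, 154 and 112 CPM in *Ddx6* KO, all far below the lowest WT culture (-2.09 ± 0.16; adjusted p = 1.0e-06). In total RNA the same gene went from 104, 108 and 111 CPM to 76.0, 72.7, 70.8 and 70.3 CPM (-0.73 ± 0.17; adjusted p = 0.0034), and its stability rose by 1.36 ± 0.23 (adjusted p = 0.0036). *Hist1h2ak*, the H2A gene with the most counts, had 611, 731 and 863 CPM in WT nascent RNA against 177, 267, 291 and 222 CPM, and 230, 220 and 225 CPM in WT total RNA against 160, 151, 156 and 163 CPM. Its log2 fold changes were -1.83 ± 0.15 and -0.67 ± 0.15, both called. *Hist1h2ab* fell by 1.54 ± 0.08 in nascent RNA (404, 393 and 511 CPM against 159, 199, 178 and 159 CPM) and by 0.76 ± 0.08 in total RNA (133, 122 and 118 CPM against 81.1, 86.5, 79.0 and 80.2 CPM). Neither gene's groups overlapped in either assay.

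*Hist1h2ad* and *Hist1h2ae* were among the members with the largest falls. *Hist1h2ad* went from 78.6, 80.1 and 95.6 CPM to 17, 31.9, 27.7 and 26.9 CPM in nascent RNA (-1.93 ± 0.13; adjusted p = 4.7e-17). *Hist1h2ae* went from 179, 185 and 237 CPM to 49.7, 57.7, 69.7 and 69.5 CPM in nascent RNA (-1.91 ± 0.10), and from 23.9, 23.5 and 19.2 CPM to 12.9, 13.1, 14.7 and 13.3 CPM in total RNA (-0.86 ± 0.13; adjusted p = 3.9e-07). *Hist1h2aa* (ENSMUSG00000060081, chr13:23934462-23934851), at the end of the cluster, was the other member whose total RNA rose. Its nascent RNA was 27.9, 45.4 and 40.8 CPM in WT and 18.5, 30.9, 26.1 and 20.7 CPM in *Ddx6* KO, overlapping as CPM but not after TMM scaling, with a fall of 0.89 ± 0.15 (adjusted p = 2.1e-06). Its total RNA was 9.43, 10.8 and 9.10 CPM in WT and 18, 17.3, 15.3 and 17.2 CPM in *Ddx6* KO, without overlap (0.63 ± 0.16; adjusted p = 0.00062), and its stability rose by 1.53 ± 0.22 (adjusted p = 8.8e-07), the largest rise of all members.

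All 14 tested H2B genes fell in nascent RNA (median -1.62), 9 fell in total RNA (median -0.52) and stability rose for 13 (median 1.07). *Hist1h2bb* led in counts, with 892, 1007 and 1269 CPM in WT nascent RNA against 272, 382, 375 and 345 CPM in *Ddx6* KO (-1.83 ± 0.13; adjusted p = 4.7e-07). Its total RNA was 452, 417 and 428 CPM against 259, 261, 282 and 291 CPM (-0.82 ± 0.13; adjusted p = 0.00025). *Hist1h2bg* had 755, 850 and 1033 CPM against 258, 369, 381 and 303 CPM in nascent RNA (-1.63 ± 0.15) and 281, 268 and 253 CPM against 157, 162, 176 and 204 CPM in total RNA (-0.77 ± 0.15). The rise of its stability, 0.86 ± 0.21 (adjusted p = 0.023), was not called with the culture as a block (adjusted p = 0.059), nor without WT replicate 2 (0.089), WT replicate 3 (0.098) or clone 2 replicate 2 (0.070). *Hist1h2bj* had the largest nascent fall among H2B genes, from 363, 460 and 569 CPM to 109, 165, 159 and 132 CPM (-1.93 ± 0.16; adjusted p = 1.8e-06), beside 209, 208 and 207 CPM against 161, 156, 160 and 143 CPM in total RNA (-0.58 ± 0.15; adjusted p = 0.0070, or 0.089 with clone 1 only). No *Ddx6* KO culture of these 3 genes overlapped with a WT culture.

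H3 and H4 form the tetramer at the centre of the nucleosome. All 11 tested H3 genes fell in nascent RNA (median -1.39), 9 fell in total RNA (median -0.58) and stability rose for 10 (median 0.79). The 3 H3 genes with the most counts went from 783 to 872 CPM down to 288 to 404 CPM in nascent RNA for *Hist1h3e* (-1.36 ± 0.09; adjusted p = 9.6e-11), from 566 to 707 CPM down to 230 to 364 CPM for *Hist1h3f* (-1.25 ± 0.13; adjusted p = 1.3e-05) and from 550 to 752 CPM down to 185 to 292 CPM for *Hist1h3b* (-1.56 ± 0.16; adjusted p = 1.1e-05). In total RNA, *Hist1h3e* had 344, 346 and 324 CPM in WT and 215, 236, 243 and 243 CPM in *Ddx6* KO (-0.68 ± 0.09; adjusted p = 1.4e-06). *Hist1h3f* had 215, 221 and 221 CPM against 179, 171, 187 and 189 CPM (-0.43 ± 0.13; adjusted p = 0.020), a call that was lost without WT replicate 2 (adjusted p = 0.069) or WT replicate 3 (0.058) and by library size alone (-0.27; adjusted p = 0.12). *Hist1h3b* had 211, 223 and 236 CPM against 162, 157, 176 and 190 CPM (-0.54 ± 0.15; adjusted p = 0.013, or -0.39 with adjusted p = 0.059 by library size alone). All 3 genes were lower in every *Ddx6* KO culture than in any WT culture. Stability rose for *Hist1h3e* (0.68 ± 0.12; adjusted p = 0.0010), *Hist1h3f* (0.82 ± 0.19; adjusted p = 0.016) and *Hist1h3b* (1.01 ± 0.22; adjusted p = 0.014). For *Hist1h3f* it was not called without WT replicate 2 (adjusted p = 0.076), WT replicate 3 (0.074) or clone 2 replicate 2 (0.058), and for *Hist1h3b* not without WT replicate 2 (0.062).

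All 12 tested H4 genes fell in nascent RNA (median -1.32), 10 fell in total RNA (median -0.56) and stability rose for 8 (median 0.76). *Hist1h4d* (ENSMUSG00000061482, chr13:23581598-23581990) went from 1217, 1356 and 1622 CPM to 447, 684, 733 and 549 CPM in nascent RNA (-1.42 ± 0.15; adjusted p = 1.6e-05) and from 591, 597 and 587 CPM to 428, 428, 437 and 462 CPM in total RNA (-0.59 ± 0.15; adjusted p = 0.0066). Both groups stayed apart in both assays. Its stability change of 0.83 ± 0.21 (adjusted p = 0.028) was not called with the culture as a block (adjusted p = 0.057), nor when WT replicate 1 (0.060), WT replicate 2 (0.10), WT replicate 3 (0.11) or clone 2 replicate 2 (0.084) was left out. *Hist1h4a* had 622, 579 and 650 CPM against 288, 344, 379 and 325 CPM in nascent RNA (-1.09 ± 0.07). Its total RNA overlapped between groups as CPM but not after TMM scaling, with 183, 208 and 179 CPM in WT and 181, 165, 186 and 178 CPM in *Ddx6* KO (-0.25 ± 0.07; adjusted p = 0.0015, or -0.10 with adjusted p = 0.24 when scaled by library size alone), and its stability rose by 0.84 ± 0.10 (adjusted p = 1.4e-08). *Hist1h4h* had 421, 427 and 508 CPM against 177, 262, 271 and 224 CPM in nascent RNA (-1.16 ± 0.12) and 308, 314 and 311 CPM against 208, 213, 218 and 235 CPM in total RNA (-0.66 ± 0.11). Its stability change of 0.50 ± 0.16 was not called (adjusted p = 0.062), nor on the single-end run alone (0.19). It was called with the culture as a block (adjusted p = 8.4e-05), in DESeq2 (0.0022) and limma (0.0024), with clone 2 only (0.0040) and on the paired-end run alone (0.00028).

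Within the Hist1 cluster on chromosome 13 the members lie in 3 blocks. The first (chr13:21715763-21837530, 17 members, 12 tested) had a median nascent log2 fold change of -1.54, the second (chr13:22035164-22043676, 5 members) of -1.82 and the third (chr13:23531050-23934851, 30 members) of -1.37. In total RNA the 3 medians were -0.53, -0.58 and -0.57, and in stability 1.01, 1.27 and 0.85. The 526 other tested genes on chromosome 13 had medians of 0.02, -0.12 and -0.09.

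Many H2A and H2B genes stand head to head. With 12 such pairs, 235 to 305 bases lay between the start of one counted gene and that of its neighbour, and both genes were tested in 10 pairs. The nascent log2 fold changes of the partners differed by a median of 0.18, with 8 of 10 pairs closer than 0.3. *Hist1h2ak* and *Hist1h2bn* were the closest (-1.83 and -1.81). *Hist1h2bf* and *Hist1h2ad* were the farthest apart (-1.21 and -1.93), followed by *Hist1h2bl* and *Hist1h2ai* (-1.08 and -1.62). *Hist1h2ac*, whose promoter window is printed above, and *Hist1h2bc* changed by -2.09 and -1.86. No test was made of their likeness, and H2A and H2B genes that are not neighbours were not compared in this way.

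The nascent medians of genes with and without a motif were compared within each class, as a description. For the TATA box they were -1.13 with it (4 genes) and -0.68 without it (2 genes) among H1 genes. The H1 genes without it included *Hist1h1t*, which was close to the filter. Among H2A genes they were -1.79 with and -1.55 without it, among H2B -1.70 and -1.52, among H3 -1.49 and -1.36 and among H4 -1.32 and -1.29. For the octamer they were -1.54 with and -1.82 without it among H2A genes and -1.63 and -1.61 among H2B genes. Among H1 genes the 5 with an H1 box ranged from -1.30 to -0.39, and *Hist1h1a*, without this exact sequence, was at -1.61. The AAACACA sequence was also found in 2 tested H2A genes (median -1.21, against -1.79 without it) and in 1 tested H2B gene (-1.07, against a median of -1.63). A match or its lack says only whether these letters are in the window.

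Members outside the Hist1 cluster fell in nascent RNA as well, by less in most cases. In Hist2 (chr3:96219865-96270132), 7 of 10 members were tested, and all 7 fell in nascent RNA (median -0.95), 3 fell in total RNA (median -0.34) and stability rose for 3 (median 0.67). *Hist2h2bb*, an H2B gene, had 535, 610 and 736 CPM against 202, 296, 325 and 249 CPM in nascent RNA (-1.44 ± 0.14; adjusted p = 1.1e-05). In total RNA it had 401, 378 and 376 CPM against 338, 319, 349 and 346 CPM, lower in every *Ddx6* KO culture but not called (-0.34 ± 0.14; adjusted p = 0.059). That fall was called in limma (adjusted p = 0.00044), with clone 2 only (0.041), without clone 1 replicate 1 (0.0090) and in the fits of the single-end (0.027) and the paired-end run (0.045). The stability of *Hist2h2bb* rose by 1.09 ± 0.20 (adjusted p = 0.0054). *Hist2h4* had 296, 327 and 366 CPM against 139, 201, 193 and 160 CPM in nascent RNA (-1.14 ± 0.15) and 77.2, 90.8 and 97.6 CPM against 47.7, 64.1, 64.9 and 69.5 CPM in total RNA (-0.68 ± 0.16), both called. Its stability change of 0.46 ± 0.22 was not called (adjusted p = 0.22), nor on the single-end (0.24) or the paired-end run alone (0.20). It was called with the culture as a block (adjusted p = 0.00021), in limma (0.036), with clone 2 only (0.0061), with no filter (0.010) and without clone 1 replicate 1 (0.011).

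*Hist2h2ac* had 222, 276 and 268 CPM against 131, 180, 177 and 150 CPM in nascent RNA (-0.89 ± 0.09). In total RNA it had 112, 105 and 117 CPM against 95.7, 109, 108 and 108 CPM, overlapping as CPM but not after TMM scaling (-0.24 ± 0.08; adjusted p = 0.021). That call was lost without WT replicate 3 (adjusted p = 0.13) or clone 2 replicate 2 (0.053), with the change at -0.20 and -0.24, and also with TMM within each assay (-0.14; adjusted p = 0.17) and by library size alone (-0.08; adjusted p = 0.45). *Hist2h3b* had 55.7, 65.3 and 69.2 CPM against 31.8, 47.2, 37.1 and 36.1 CPM in nascent RNA (-0.95 ± 0.11) and 48.6, 41.4 and 46.9 CPM against 37.3, 39.7, 35.4 and 36.2 CPM in total RNA (-0.45 ± 0.09). Its stability rose by 0.50 ± 0.15 (adjusted p = 0.015), which was not called without WT replicate 2 (0.12), WT replicate 3 (0.064) or clone 1 replicate 1 (0.065), nor on the single-end run alone (0.27; adjusted p = 0.40).

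The other 3 tested Hist2 members had few counts. *Hist2h3c2* had 25, 20.9 and 19.7 CPM against 7.28, 10.2, 8.71 and 8.40 CPM in nascent RNA (-1.54 ± 0.22), and between 0.41 and 1.53 CPM in every total RNA library. *Hist2h2ab* had 23.8, 25.2 and 22.7 CPM against 12.1, 25.5, 15.5 and 19 CPM in nascent RNA (-0.62 ± 0.18; adjusted p = 0.0039, or 0.079 on the paired-end run alone) and 11.7, 12.2 and 8.82 CPM against 11.9, 10.8, 14 and 13.5 CPM in total RNA (0.05 ± 0.17, not called). Its stability change of 0.67 ± 0.24 was not called (adjusted p = 0.061), nor on the single-end (0.091) or the paired-end run alone (0.22). It was called with the culture as a block (adjusted p = 0.032), with clone 2 only (0.029) and with TMM within each assay (0.038). *Hist2h2be* had 12.7, 16.1 and 15.7 CPM against 10.9, 11.2, 10.3 and 9.80 CPM in nascent RNA (-0.71 ± 0.22; adjusted p = 0.0064, or 0.22 on the paired-end run alone) and 1.40 to 2.85 CPM in total RNA.

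The Hist3 cluster lies on chromosome 11 (chr11:58948920-58956830). *Hist3h2a* had 20.5, 22.2 and 20.1 CPM against 9.40, 12.9, 8.38 and 4.48 CPM in nascent RNA (-1.48 ± 0.25; adjusted p = 3.4e-06). In total RNA it had 1.57, 3.36 and 4.98 CPM against 1.32, 1.64, 2.04 and 3.05 CPM, overlapping, with a fall of 0.91 ± 0.34 (adjusted p = 0.022). Without WT replicate 3 the total change was -0.48 (adjusted p = 0.35), and the call was also lost without WT replicate 2 (0.063), clone 1 replicate 1 (0.078), clone 1 replicate 2 (0.051) or clone 2 replicate 1 (0.055). *Hist3h2ba* had 8.19, 7.40 and 7.69 CPM against 3.03, 5.77, 3.22 and 4.48 CPM in nascent RNA (-1.11 ± 0.30; adjusted p = 0.0021) and 2.75 to 5.59 CPM in every total RNA library. The rise of its stability (1.17 ± 0.39; adjusted p = 0.039) was not called without WT replicate 2 (0.17), WT replicate 3 (0.10), clone 1 replicate 1 (0.091), clone 2 replicate 1 (0.11) or clone 2 replicate 2 (0.052). Nor was it called on the single-end (0.16) or the paired-end run alone (0.082), or with no filter (0.064).

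*Hist4h4* (ENSMUSG00000096010, chr6:136801553-136804415) had the smallest changes among H4 genes in nascent and total RNA. In stability it did not (0.63 ± 0.27), and that change was called in limma (adjusted p = 0.0062) but not in edgeR. Its nascent RNA was 265, 321 and 374 CPM in WT and 172, 297, 325 and 225 CPM in *Ddx6* KO, with overlap, and fell by 0.54 ± 0.19 (adjusted p = 0.040). The call was lost without WT replicate 2 (adjusted p = 0.12), WT replicate 3 (0.18) or clone 2 replicate 2 (0.11), and by library size alone (-0.34; adjusted p = 0.17). So it was on the single-end run alone (0.055), with no filter (0.12) and with the replicate number as a block (0.12). Its total RNA was 157, 143 and 146 CPM against 169, 174, 186 and 171 CPM, higher in every *Ddx6* KO culture as CPM but not after TMM scaling, and not called (0.08 ± 0.18; adjusted p = 0.75). The 734 other tested genes on chromosome 6 had median log2 fold changes of 0.54 in nascent and 0.43 in total RNA, the part of which in the values of *Hist4h4* was not tested. The counted exon of *Hist4h4* runs on for 2445 bases beyond the stem-loop printed above, so that reads from a longer transcript are counted with it.

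The level of total over 4sU can be compared between genes only if both assays count reads of a gene alike. Histone genes exist in near-identical copies, and the 4sU libraries were sequenced once with single-end reads of 50 bases, like total RNA, and once with paired ends. The members' median WT nascent level was higher in the paired-end run by 0.19 on the log2 scale, while that of all tested genes was lower by 0.18 (-0.18). *Hist1h4n*, for which 14.4% of the 50-base windows occurred in no other gene, had 4.85 CPM in the single-end run and 547 CPM in the paired-end run of the same WT libraries. *Hist1h2bn* had 66.4 and 579 CPM, *Hist1h2ae* 73.9 and 370 CPM, *Hist1h4a* 336 and 992 CPM, *Hist1h3h* 82.3 and 258 CPM, *Hist1h4f* 179 and 461 CPM and *Hist1h2ad* 54.1 and 126 CPM. These 7 members were more than 2-fold higher in the paired-end run, as were 3.22% of all tested genes.

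**Figure D4:**
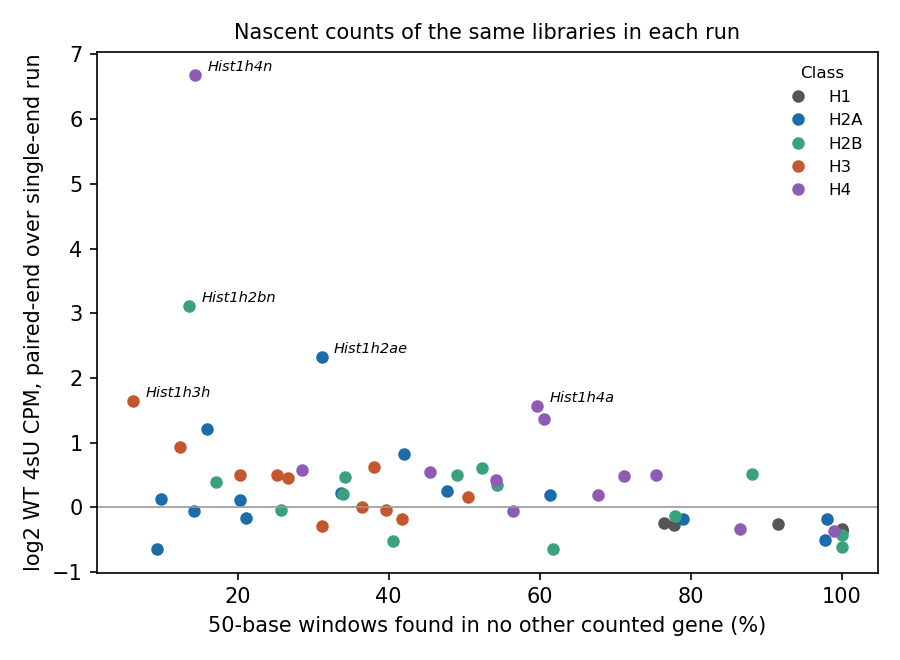
Log2 ratio of mean WT nascent CPM in the paired-end run over the single-end run for each tested histone gene, against the percentage of its 50-base windows found in no other counted gene. Most genes lie near 0, and *Hist1h4n* (6.68) and *Hist1h2bn* (3.11), both below 20% of unique windows, stand farthest above. Other genes below 20% lie near or below 0, such as *Hist1h2ah* (-0.64). *Hist1h4a* (1.56) and *Hist1h4f* (1.36) stand above with 59.6% and 60.5% of unique windows.

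The difference between genotypes was similar in either run. The median nascent log2 fold change was -1.36 in the single-end and -1.40 in the paired-end run, with 54 members called in each, and the median stability change was 0.88 and 0.92, with 45 and 48 called. The total RNA counts, single-end only, were the same in both fits. The nascent change of *Hist1h2bn* was -1.74 and -1.79, that of *Hist1h2ae* -1.76 and -1.92, and that of *Hist1h3h* -1.15 and -1.88. *Hist1h4n* fell in nascent RNA with both runs summed (-1.47 ± 0.10) and in the paired-end run (-1.45), but was not called in the single-end run (-0.88; adjusted p = 0.19), and its stability change of 1.25 ± 0.54 was not called (adjusted p = 0.14) but was with the culture as a block (adjusted p = 0.040). The 27 tested members with more than 50% unique windows had medians of -1.16, -0.47 and 0.76 in nascent RNA, total RNA and stability, and the other 30 of -1.55, -0.56 and 1.01.

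On single-end reads in both assays, the log2 ratio of total over 4sU had a median of -1.17 over the members in WT, which was at the 23.0th percentile of all tested genes. All 57 members lay below the median of the tested genes and 38 in the lowest 25%. In *Ddx6* KO the median was -0.27, at the 40.6th percentile, with 42 members below the median and 8 in the lowest 25%. By class, the median ratio was -0.71 in WT and -0.04 in *Ddx6* KO for H1, -1.38 and -0.39 for H2A, -1.10 and -0.02 for H2B, -1.39 and -0.43 for H3 and -0.99 and -0.20 for H4. *Hist1h1e* had the highest WT ratio, with 0.11, -0.07 and -0.19 in the WT cultures and 1.03, 0.63, 0.58 and 0.68 in the *Ddx6* KO cultures. *Hist1h1a* had -1.03, -1.11 and -1.24 against 0.12, -0.33, -0.32 and -0.20. *Hist2h3c2* had the lowest, with -4.63, -3.54 and -3.43 against -2.56, -3.29, -2.82 and -2.59, where the total RNA counts were near the floor. With both runs summed the WT median was -1.39, at the 21.0th percentile.

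**Figure D5:**
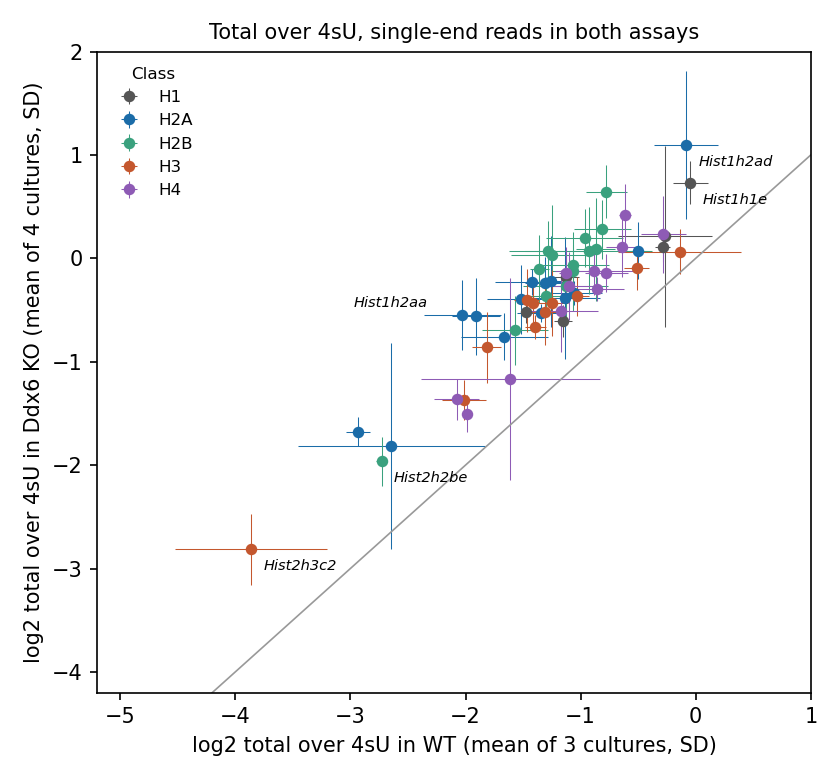
Mean log2 total over 4sU in *Ddx6* KO against that in WT for the 57 tested histone genes, with single-end reads in both assays and error bars of 1 SD over 4 and 3 cultures. Every point lies above the diagonal, *Hist1h1e* and *Hist1h2ad* at the upper right and *Hist2h3c2* at the lower left.

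Each clone differed from WT in the same direction. The median nascent change was -1.45 in clone 1 and -1.33 in clone 2, that of total RNA -0.52 and -0.50, and that of stability 0.90 and 0.91. In the contrast of clone 2 against clone 1, edgeR called no member in nascent RNA, total RNA or stability, where 0.172%, 0.296% and 0.00689% of all tested genes were called, and 6, 1 and 1 members had an unadjusted p below 0.05, beside 6.54%, 6.61% and 4.04% of all tested genes. With 2 cultures per clone, a small difference between clones would not be detected. The medians of the cultures lay farther apart than those of the clones, since the median nascent difference from the WT mean was -1.69 and -1.25 in the cultures of clone 1 and -1.23 and -1.46 in those of clone 2. With clone 1 only, which leaves fewer cultures to test, the stability calls of *Hist1h2bg* (adjusted p = 0.13), *Hist1h2bb* (0.072), *Hist1h3f* (0.084), *Hist1h3b* (0.12), *Hist1h4d* (0.11), *Hist2h3b* (0.062) and *Hist3h2ba* (0.19) were lost, as were the nascent calls of *Hist2h2be* (0.052) and *Hist4h4* (0.085) and the total RNA calls of *Hist1h2bj* (0.089), *Hist1h3f* (0.067) and *Hist2h2ac* (0.061). With clone 2 only, the stability calls of *Hist2h3b* (adjusted p = 0.051) and *Hist3h2ba* (0.078), the nascent call of *Hist4h4* (0.056) and the total RNA calls of *Hist2h2ac* (0.073) and *Hist3h2a* (0.21) were lost.

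Of 22 genes on a list of histone transcription and processing factors, 20 were found and tested. In nascent RNA 4 rose and 6 fell (median 0.01), where 20.6% of all tested genes rose and 21.0% fell, so that the list lay near the background. In total RNA 2 rose and 11 fell (median -0.15), against 19.5% and 31.0% of all tested genes, and in stability 1 rose and 2 fell, against 3.78% and 8.60%. *Npat*, the S phase activator of histone genes, rose by 0.25 ± 0.08 in nascent and by 0.20 ± 0.07 in total RNA. *Casp8ap2* (FLASH), which works with NPAT and in 3′ end formation, was not called (0.11 ± 0.07 and 0.10 ± 0.06). *Slbp*, the stem-loop binding protein, fell by 0.55 ± 0.06 in nascent and by 0.27 ± 0.06 in total RNA, and its stability rose by 0.27 ± 0.09 (adjusted p = 0.031). *Lsm10*, a subunit of the U7 snRNP that cleaves histone pre-mRNA, rose in nascent RNA (0.84 ± 0.20), its total RNA was not called (-0.12 ± 0.14), and its stability fell by 0.96 ± 0.25 (adjusted p = 0.0059).

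Of 22 S phase and DNA replication genes, 11 fell and 2 rose in nascent RNA (median -0.27), beside 21.0% and 20.6% of all tested genes. In total RNA 17 fell and 2 rose (median -0.35), beside 31.0% and 19.5%, and in stability 3 rose and 5 fell (median -0.01), beside 3.78% and 8.60%. The replicative helicase subunits *Mcm3*, *Mcm4* and *Mcm5* fell in nascent RNA by 0.73 ± 0.06, 0.46 ± 0.06 and 0.53 ± 0.06 and in total RNA by 0.64 ± 0.05, 0.58 ± 0.05 and 0.55 ± 0.05, whereas *Mcm2* was not called in either (0.00 ± 0.06 and -0.01 ± 0.05). Summed over the list, these genes had 4983 to 5187 CPM in WT nascent RNA and 4427 to 4693 CPM in *Ddx6* KO, and 6969 to 7081 CPM against 5939 to 6086 CPM in total RNA. Every *Ddx6* KO sum thus lay below every WT sum, by less than for the histone genes in nascent RNA, and the part of S phase in the histone result was not tested.

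Replication-independent histone variants, whose genes carry poly(A) signals and are used outside S phase, were listed for comparison. Of 11 tested, 2 rose and 5 fell in nascent RNA (median -0.20), beside 20.6% and 21.0% of all tested genes, and 3 rose and 6 fell in total RNA (median -0.29), beside 19.5% and 31.0%. Stability rose for 5 and fell for 1, beside 3.78% and 8.60%. *H2afx*, whose transcripts can end either at a histone stem-loop or in a poly(A) tail, fell by 1.39 ± 0.06 in nascent and by 0.76 ± 0.06 in total RNA, and its stability rose by 0.63 ± 0.08. *H2afz* fell by 0.47 ± 0.07 in nascent RNA with no called change in total RNA (0.00 ± 0.09). *H2afv* was not called in nascent RNA (-0.23 ± 0.12) and fell in total RNA (-0.37 ± 0.07), and *H2afy* was not called in nascent RNA (-0.14 ± 0.10) and fell in total RNA (-0.70 ± 0.06).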

How the data were processed

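Gene counts as deposited by the authors were used. Per the authors' methods and the submitters' processing notes, adapters were trimmed with cutadapt 1.14, reads were aligned to mm10 with STAR 2.5.3a, and uniquely mapped reads were counted per gene with featureCounts 1.5.3. The counts of the 2 runs of each 4sU library, single-end and paired-end, were summed. The 92 spike-in rows held 0 counts. Library totals, which set the precision, were 2441639 to 3570192 (4sU) and 5724179 to 7369651 (total RNA), so that 3 counts correspond to 0.840 to 1.23 CPM and 0.407 to 0.524 CPM.

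Genes that reached 3 CPM in 3 or more libraries entered a robust quasi-likelihood fit in edgeR 4.0.16 (TMM over 14 libraries; R 4.3.3), which gave *Ddx6* KO minus WT in 4sU (nascent RNA), in total RNA, and their difference (mRNA stability). A gene was called at a Benjamini-Hochberg adjusted p below 0.05 over all 14518 tested genes. DESeq2 1.42.0 and limma 3.58.1 were alternatives. The ratio was log2 of (TMM-scaled CPM + 0.5) in total RNA over 4sU. Tables and sequences were handled with python 3.11.15 (pandas 2.3.3, numpy 2.4.6) and drawn with matplotlib 3.10.9. The fitting steps were tested on simulated data.

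Since 4sU and total RNA of a culture came from 1 RNA sample, they are paired. The correlation of their deviations from the group means was 0.00354 to 0.125 (mean 0.0677, n = 7 cultures). P-values measure the spread between cultures, and the clones are 2.

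The members and gene lists were chosen with earlier results of these data known. Values per culture were given for the 3 members with the most counts in each class, the 3 called members with the largest rise and fall in each contrast, every tested member outside Hist1, and *Ddx6*. The first 4 genes of a list served as examples.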

Additional observations from a re-analysis of the deposited data

Results flagged for a closer look

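In 3 of 97 groups of 4 *Ddx6* KO cultures checked, 1 culture stood apart from the other 3 by Dixon's criterion, which flags about 1 in 20 groups by chance. In all 3 it was clone 1 replicate 1. For *Hist2h2ac* in total RNA it had 95.7 CPM, below 109, 108 and 108 CPM in the others. For *Hist1h3e* in nascent RNA it had 288 CPM, below 402, 404 and 394 CPM. The log2 ratio of total over 4sU of *Hist1h2ad* was 1.05 in this culture and 0.25, 0.17 and 0.17 in the others.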

How the results depend on the processing

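The members called in nascent RNA numbered 54 to 56 of 57 over the other tools, scalings, filters, runs, blocks and clones tried, and 46 with a 2-fold limit. In total RNA 38 to 48 were called, and 0 with a 2-fold limit. In stability 36 to 51 were called, and 21 with a 2-fold limit. Leaving out 1 culture gave 55 to 56, 43 to 46 and 39 to 50 calls. The median total RNA change (-0.55) was -0.53 in DESeq2, -0.46 with TMM within each assay, -0.52 with 3 CPM required in every library of 1 assay, -0.52 and -0.50 with clone 1 or clone 2 only, -0.40 by library size alone, -0.43 with no filter, -0.47 over mostly unique members, and -0.56 to -0.50 without 1 culture. The nascent median was -1.16 over mostly unique members. The WT ratio median was -1.20 over mostly unique members, -1.59 in the paired-end and -1.17 in the single-end run. The summed log2 changes on TMM-scaled CPM were -1.21 for H1 in nascent RNA and, in total RNA, -0.45 for H1, -0.56 for H2A, -0.59 for H2B, -0.56 for H3 and -0.49 for H4.

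With the culture as a replicate block, 50 members were called in stability. The calls it changed among the named genes stand beside them, and it changed no other. With the replicate number as a block across genotypes, 55, 42 and 49 members were called in nascent RNA, total RNA and stability, with a total RNA median of -0.50. The total RNA calls of *Hist1h3f* (adjusted p = 0.064), *Hist2h2ac* (0.051) and *Hist3h2a* (0.073) were lost there. With no filter, those of *Hist1h3b* (0.074), *Hist1h4a* (0.056) and *Hist2h2ac* (0.16) and the stability call of *Hist1h4d* (0.053) were lost. Same-numbered WT and *Ddx6* KO cultures share only a number: the correlation of their deviations averaged 0.0138 in 4sU (-0.0381 to 0.0885) and 0.0170 in total RNA (-0.0069 to 0.0521).

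Changes that were not called turned sign in *Hist2h2ab* total RNA (clone 1 only -0.074, replicate number block -0.029, without 1 culture -0.086 to 0.15), *Hist2h2be* total RNA (without 1 culture -0.16 to 0.27), *Hist3h2ba* total RNA (without 1 culture -0.15 to 0.34) and *Hist3h2a* stability (clone 1 only -0.20). Their cause was not tested. The selection of members unique in the genome was not run, since no genome was given. The selection on annotated transcripts used in its place, the culture left out for sums and ratios, and the contrast of the clones were chosen after seeing the data. Few counts limit *Hist2h3c2*, *Hist2h2ab*, *Hist2h2be* and the Hist3 members.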
